A study of Mus musculus with 28 samples.

Results

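The 10 genes described here encode the peroxisome proliferator-activated receptors (PPARs), 2 of the retinoid X receptors (RXRs) with which they pair, and proteins that the receptors recruit. They were taken by symbol from the deposited count tables: Ppara, Ppard, Pparg, Rxra, Rxrb, Ppargc1a, Ppargc1b, Ncoa1, Ncoa2 and Ncor1, 10 of the 23393 gene symbols present in both tables. The strain was 129svj and the age 11 to 13 months throughout, and 4 groups of 7 mice gave 28 liver RNA libraries, 1 per animal. Wild-type (WT) animals and Sirt6 heterozygotes (HZ) were gavaged with 0.5% carboxymethylcellulose alone, called vehicle here, or with 50 mg/kg WY-14643 (WY) in the same carrier, and all livers were taken after 12 h. Every group therefore received the carrier. The sources used here do not give the sex of the animals or the construction of the Sirt6 allele.

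PPARs are nuclear receptors that are activated by fatty acids and related lipids and bind DNA as heterodimers with an RXR. PPARα is the main form in hepatocytes and drives genes of fatty acid oxidation, and WY-14643 is a synthetic agonist of it. Without agonist the dimer can hold corepressor complexes such as those built on NCoR1, and with agonist it recruits coactivators, among them the p160 proteins encoded by Ncoa1 and Ncoa2 and the PGC-1 proteins encoded by Ppargc1a and Ppargc1b. PGC-1α is also a fasting-induced coactivator of gluconeogenic and mitochondrial genes.

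Promoter stretches are shown for the gene that fell most under WY (Ppargc1a), the RXR gene that rose (Rxrb) and the RXR gene with no call in any comparison (Rxra). They are RefSeq sequences on GRCm38.p6, read 5′ to 3′ on the gene's strand, and are limited to bases upstream of the start site that no annotated exon covers. The position of Ppargc1a is chr5:51567727-51567975 on the minus strand, that of Rxrb is chr17:34031683-34031811 on the plus strand, and that of Rxra is chr2:27676951-27677200 on the plus strand. Capitals mark the GC box GGGCGG and the cAMP response half-site TGACG, or their reverse complements CCGCCC and CGTCA. Each sequence has a line of its own:
Ppargc1a: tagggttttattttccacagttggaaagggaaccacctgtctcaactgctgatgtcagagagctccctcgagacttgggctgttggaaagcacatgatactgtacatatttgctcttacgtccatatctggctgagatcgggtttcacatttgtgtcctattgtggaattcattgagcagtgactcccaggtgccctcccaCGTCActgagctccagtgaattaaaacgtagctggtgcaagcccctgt
Rxrb: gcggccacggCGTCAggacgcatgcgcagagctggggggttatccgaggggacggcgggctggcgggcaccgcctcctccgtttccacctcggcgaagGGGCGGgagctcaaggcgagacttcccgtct
Rxra: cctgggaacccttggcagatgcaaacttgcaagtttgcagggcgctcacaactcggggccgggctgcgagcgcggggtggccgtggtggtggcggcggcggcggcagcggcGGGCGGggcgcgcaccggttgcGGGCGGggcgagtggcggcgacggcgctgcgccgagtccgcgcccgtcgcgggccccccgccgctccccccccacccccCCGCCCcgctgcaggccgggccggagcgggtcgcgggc

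The Ppargc1a stretch holds 1 cAMP response half-site, on the opposite strand, at positions -49 to -45 with the start site counted as 0, and no GC box. Over its window of 300 bases, from 250 before to 50 after the start, Ppargc1a had 48.7% G and C and 5 CpG dinucleotides. The Rxrb window shown had 68.7% and 37 CpG, and the Rxra window shown had 83.0% and 55 CpG. The median of the 32817 windows in the table was 52.7% with 7 CpG. The Ppargc1a window lay below that middle and the RXR windows shown lay far above it. A second Rxra window had 54.3% and 1 CpG, and a second Rxrb window had 82.0% and 47 CpG. Windows of 8 of the 10 genes were used, 13 windows in all. Windows on chromosome 18, which holds Ppargc1b, were left out for the 10 genes. The 32817 windows were not limited in this way. Both strands were searched, and motif letters overlapping each other were all counted. The direct repeat of AGGTCA with 1 base between the copies, the form that PPAR and RXR pairs bind, was in none of the 13 windows and in 0.04% of all windows. A single AGGTCA, which every such repeat contains, was in 2 windows of Pparg and 1 of Rxra, against 16.26% of all windows. TGACG, which the full cAMP element contains, was in windows of Ppara, Ppard, Rxrb and Ppargc1a, against 20.79% of all windows, and GGGCGG was in 9 of the 13 windows, against 35.63% of all windows.

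Gene counts were 15795201 to 20020078 per library, and levels are given as CPM, counts brought to a common library total with edgeR's TMM factors. Sirt6 itself was 51.1% of the WT level in HZ livers under vehicle and 48.5% under WY (adjusted p = 0.00696 and 0.00721, edgeR). Under vehicle this call was lost with only the groups compared, without animals 71 to 78 and without the 5 HZ libraries described next, with adjusted p up to 0.173, and in these 3 analyses 0 of all genes were called. Against vehicle, Sirt6 under WY was 139% in WT (adjusted p = 0.0131, edgeR) and 132% in HZ (adjusted p = 0.0572). The WT call passed in 8 of 10 alternative analyses. Counts of Sirt6 were low, 15 to 79 per library. Group means of Alb, the hepatocyte product albumin, were 49816 to 74140 CPM, and 5 adipocyte markers summed to 0.546 CPM or less in every library, with Lep at 0 counts in all 28. The share of reads in no annotated gene was 6.35 to 7.82% under WY and 7.85 to 9.08% under vehicle. Vehicle animals were numbered 29 to 78 and WY animals 2 to 25, so treatment and any difference between those number ranges cannot be told apart. A set of 5 HZ libraries (vehicle 30 and 38, and WY 14, 15 and 21) lay apart from the rest on the second principal component, which held 9.77% of the variance. Summed Kupffer cell and macrophage markers were 727 and 630 CPM in vehicle 30 and 38, and 800, 562 and 724 CPM in WY 14, 15 and 21. The highest WT library had 487 CPM, and HZ vehicle 35, outside the set, had 589. The part of these markers in the results below was not tested. A further 4 vehicle animals (WT 74, 76 and 78 and HZ 71) carry numbers from 71 up. The labels do not say that animals were housed or killed separately, so p-values measure the spread between these samples. Livers were sequenced whole, and fewer cells of a type and less RNA per cell cannot be told apart in any result below.

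All 10 genes passed the filter on low counts. Compared per kilobase of annotated exons, Ppara was the most abundant member in WT vehicle livers at 146 ± 21.1 CPM per kb (SD, n = 7), and Rxra followed at 89.1 ± 8.29. Ncor1 at 12.0 ± 1.10, Rxrb at 7.93 ± 0.486, Ncoa2 at 5.24 ± 0.411 and Ncoa1 at 3.53 ± 0.221 CPM per kb came next. Each of the first 5 genes in this order was above its successor in 7 of 7 animals, and Ncoa1 was above Ppargc1b in 6 of 7. Ppargc1b at 2.46 ± 0.672, Ppargc1a at 2.34 ± 0.997 and Pparg at 1.70 ± 0.605 CPM per kb were not separated beyond their spread, since Ppargc1b exceeded Ppargc1a in 5 of 7 animals and Ppargc1a exceeded Pparg in 4 of 7. Ppard closed the order at 0.794 ± 0.121 CPM per kb.

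**Figure D1:**
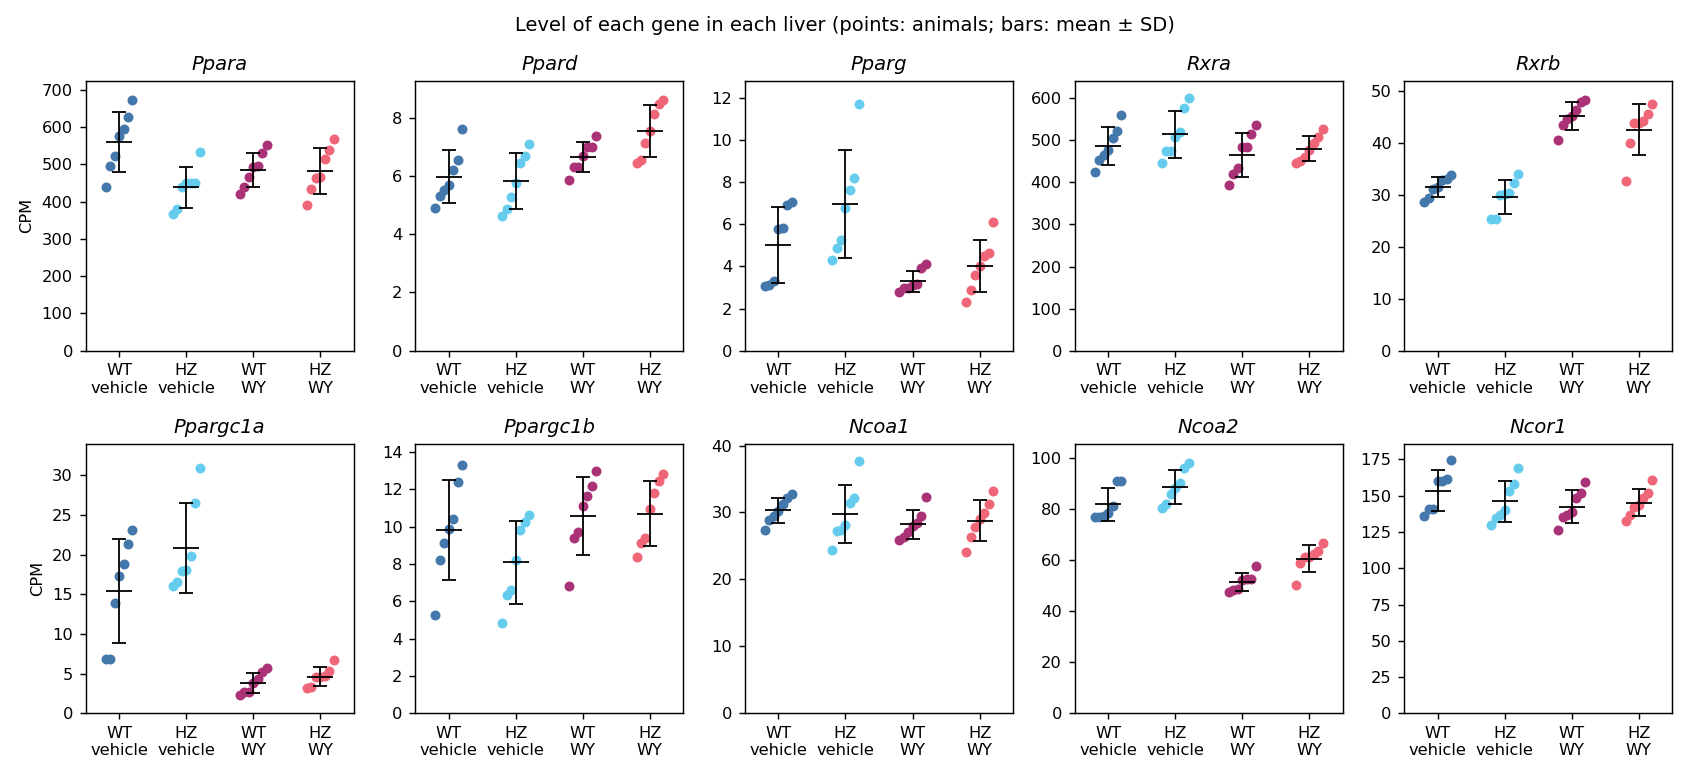
CPM of each of the 10 genes in each liver, by group, with a linear axis from 0 for each gene (points are animals, bars are mean ± SD, n = 7). Ppargc1a and Ncoa2 sit lower in both WY groups than in either vehicle group without overlap, and Rxrb sits higher in WT WY than in WT vehicle without overlap.

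Under WY Ppargc1a dropped to the last rank in both genotypes, at 0.582 ± 0.199 CPM per kb in WT and 0.702 ± 0.184 in HZ, and lay below Ppard in 6 of 7 animals of each genotype. In WT Rxrb took the rank above Ncor1, at 11.4 ± 0.662 against 11.1 ± 0.880 CPM per kb, and was the higher of the pair in 5 of 7 animals. In HZ it kept its rank below Ncor1, at 10.7 ± 1.23 against 11.3 ± 0.728, where Ncor1 was the higher in 4 of 7 animals. Ncoa2 came down to the level of Ncoa1 in WT with no change of rank, at 3.29 ± 0.230 and 3.29 ± 0.259 CPM per kb. These are descriptions of levels, and the tests of the treatment follow.

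WY against vehicle asks which receptor and coregulator transcripts differ 12 h after the agonist. In WT livers Ppargc1a, Ncoa2 and Pparg fell and Rxrb rose, which is 4 of 10 genes past an adjusted p of 0.05, where 54.1% of all 12607 genes tested passed, 27.4% as higher and 26.7% as lower. In HZ livers the same 4 genes passed in the same directions and Ppard also rose, which is 5 of 10, where 55.7% of all genes passed, 29.3% as higher and 26.4% as lower. Neither share is above the background. Groups did not overlap for 3 genes in WT (Rxrb, Ppargc1a and Ncoa2), where 27.7% of all genes were without overlap, and for 2 in HZ (Ppargc1a and Ncoa2), where 22.5% were. The median log2 fold change of the 10 genes was -0.11 in WT and -0.03 in HZ, and that of all genes was -0.02 and 0.01. The WT and HZ comparisons share no animals.

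**Figure D2:**
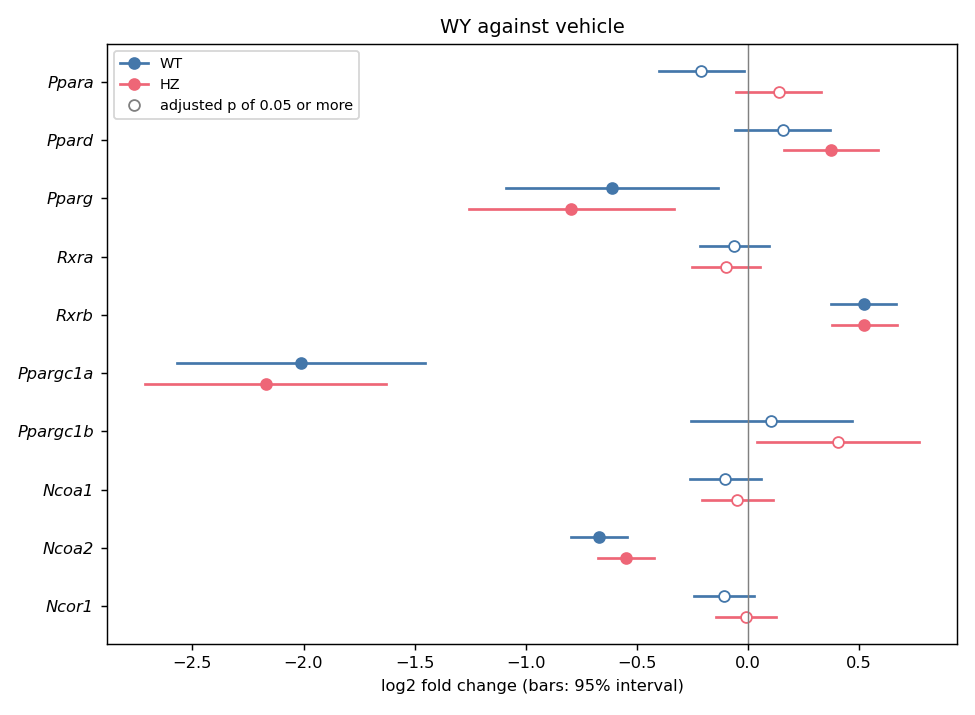
Log2 fold change of WY against vehicle for each gene in WT and HZ livers (bars are 95% intervals, open points did not pass an adjusted p of 0.05, n = 7 per group). Ppargc1a lies farthest to the left, at -2.01 in WT and -2.17 in HZ, and Rxrb lies at 0.52 in both genotypes.

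Among the receptors, Ppara showed no call for WY in either genotype. Its level ran from 438 to 673 CPM in WT vehicle with a median of 575, and from 419 to 550 CPM in WT WY with a median of 492. In HZ it ran from 366 to 533 CPM under vehicle with a median of 450, and from 390 to 566 CPM under WY with a median of 467. The groups overlapped widely in both genotypes. The log2 fold change was -0.21 in WT (95% interval -0.40 to -0.02, adjusted p = 0.0600) and 0.14 in HZ (-0.06 to 0.33, adjusted p = 0.226). The WT value passed in 6 of 11 alternative analyses with a log2 fold change between -0.27 and -0.21, among them limma with voom weights (adjusted p = 0.0187), and without animals 71 to 78 it was -0.07. Under WY 26.7% of all genes fell in WT and 26.4% in HZ. Of 7 hepatocyte markers tested, 5 fell in WT and 6 in HZ under WY. Their sum in WT was 79015 to 107720 CPM without the agonist and 65872 to 76562 CPM with it, and in HZ the matching ranges overlapped at 69237 to 105272 CPM and 42214 to 81005 CPM. Their part in the Ppara values was not tested.

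Ppard, the widely expressed PPARδ, ran from 4.90 to 7.60 CPM in WT vehicle with a median of 5.67, and from 5.87 to 7.37 CPM in WT WY with a median of 6.67. Under vehicle the HZ livers held 4.61 to 7.10 CPM with a median of 5.74, and under WY they held 6.43 to 8.61 with a median of 7.52. The WY animals were shifted upward in HZ, with overlap. The log2 fold change was 0.37 ± 0.10 in HZ (SE, adjusted p = 0.00289) and 0.16 in WT (95% interval -0.06 to 0.37, adjusted p = 0.212), and the difference between genotypes was 0.22 with an interval from -0.08 to 0.52.

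Pparg encodes PPARγ, which is low in normal liver and is known from fat and from fatty liver. In WT vehicle it ran from 3.09 to 7.07 CPM with a median of 5.79, and in WT WY from 2.77 to 4.11 CPM with a median of 3.11. In HZ vehicle it ran from 4.32 to 11.7 CPM with a median of 6.78, and in HZ WY from 2.33 to 6.11 CPM with a median of 4.03. The vehicle groups were wide, with coefficients of variation of 35.6 and 36.6%, and overlapped the WY groups. Pparg fell to 65.4% of vehicle in WT (log2 fold change -0.61 ± 0.23, adjusted p = 0.0282) and to 57.6% in HZ (-0.80 ± 0.22, adjusted p = 0.00366). In WT the call was lost in 5 of 14 analyses with 1 animal left out, those without vehicle 32, 37, 74 or 76 or WY 20, and without animals 71 to 78 (adjusted p = 0.0892). In HZ it passed in all 14 analyses with 1 animal left out and in 9 of 10 alternatives, and was lost without the 5 HZ libraries that lay apart (log2 fold change -0.50, adjusted p = 0.0889). Summed Kupffer cell and macrophage markers, 9 of 10 of them tested, were 354 to 487 CPM in WT and 358 to 727 CPM in HZ under vehicle, with 270 to 394 CPM in WT and 305 to 800 CPM in HZ under WY, and their part in the Pparg values was not tested.

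Rxra and Rxrb differed from each other in their response. Rxra, the dominant RXR of liver, ran from 424 to 559 CPM in WT vehicle and from 393 to 536 in WT WY, with medians of 477 and 483, and from 447 to 600 in HZ vehicle and from 446 to 526 in HZ WY, with medians of 509 and 477. Its log2 fold change was -0.06 in WT (95% interval -0.22 to 0.09) and -0.10 in HZ (-0.25 to 0.05). As a share of vehicle the intervals ran from 86.1 to 107% and from 83.9 to 104%, so the groups were not distinguished.

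Rxrb, the more evenly expressed RXR, ran from 28.6 to 33.8 CPM in WT vehicle with a median of 31.5, and from 40.6 to 48.3 CPM in WT WY with a median of 45.1. In HZ vehicle it ran from 25.3 to 34.0 CPM with a median of 30.1, and in HZ WY from 32.6 to 47.5 CPM with a median of 43.8. Every WT WY animal was above every WT vehicle animal, and in HZ only WY animal 18 fell within the vehicle range. Rxrb rose to 143% of vehicle in WT (log2 fold change 0.52 ± 0.07, adjusted p = 5.99e-07) and to 144% in HZ (0.52 ± 0.07, adjusted p = 4.88e-07). The call held in 11 of 11 alternatives in each genotype, with log2 fold changes of 0.45 to 0.53 in WT and 0.47 to 0.54 in HZ. Per kilobase, Rxra exceeded Rxrb by a median of 11.5-fold in WT vehicle and 12.8-fold in HZ vehicle, and by 7.89-fold in WT WY and 8.06-fold in HZ WY.

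Of the PGC-1 coactivators, Ppargc1a had the largest fold change of the 10 genes in both genotypes. It ran from 6.80 to 23.1 CPM in WT vehicle with a median of 17.3, and from 2.38 to 5.67 CPM in WT WY with a median of 3.78. In HZ vehicle it ran from 16.0 to 30.9 CPM with a median of 18.1, and in HZ WY from 3.17 to 6.71 CPM with a median of 4.61. No WY animal reached the lowest vehicle animal of its genotype. Ppargc1a fell to 24.8% of vehicle in WT (95% interval 16.8 to 36.5%, log2 fold change -2.01 ± 0.27, adjusted p = 7.45e-07) and to 22.2% in HZ (15.3 to 32.3%, -2.17 ± 0.26, adjusted p = 1.28e-07). An exact permutation test of 7 against 7 animals gave p = 0.000583 in each genotype, the smallest it can give, over 40 such tests with no adjustment. The WT vehicle group was the most variable of all 40 gene and group combinations, with a coefficient of variation of 42.5%, and held a low pair of animals (29 and 76) near 6.80 CPM. Of 15 clock genes tested, 6 fell under WY in WT, where 26.7% of all genes fell. In HZ 9 fell and 1 rose, where 26.4% of all genes fell and 29.3% rose. Clock genes also differed within groups, with a score of their shared variation from -3.85 to 2.78 in WT vehicle and from -1.45 to 4.19 in WT WY. In HZ the score ran from -2.24 to 1.58 under vehicle and from -4.08 to 1.64 under WY. It was taken after clock genes were centred within each treatment, over both genotypes. It therefore cannot account for a clock difference between WY and vehicle that both genotypes share. Within a genotype the score still differed, with medians of -0.915 in WT vehicle and 2.00 in WT WY. In HZ the order was reversed, with medians of 0.690 under vehicle and -1.48 under WY. The part of clock differences in the Ppargc1a values was not tested. With that score in the fit the log2 fold change of Ppargc1a was -2.24 in WT and -1.88 in HZ.

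Ppargc1b, which codes for PGC-1β, the relative tied to mitochondrial and lipogenic genes, did not pass. Its level was 5.27 to 13.3 CPM in WT vehicle and 6.83 to 13.0 in WT WY, with medians of 9.89 and 11.1, and 4.82 to 10.6 in HZ vehicle and 8.38 to 12.8 in HZ WY, with medians of 8.21 and 10.9. The groups overlapped. The log2 fold change was 0.10 in WT (95% interval -0.26 to 0.47) and 0.40 in HZ (0.04 to 0.77, adjusted p = 0.0558), and the HZ value passed in 2 of 11 alternatives. Per kilobase, Ppargc1a exceeded Ppargc1b in 2 of 7 WT vehicle and 7 of 7 HZ vehicle livers and in 0 of 14 WY livers. The median ratio was 0.853 and 1.51 under vehicle in WT and HZ, and 0.211 and 0.255 under WY. Which gene is the higher under vehicle depends on the exon lengths used, 6.59 kb for Ppargc1a and 3.99 kb for Ppargc1b. In CPM the median of Ppargc1a was above that of Ppargc1b in both vehicle groups, 17.3 against 9.89 in WT and 18.1 against 8.21 in HZ. The ratio was not tested between genotypes.

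**Figure D3:**
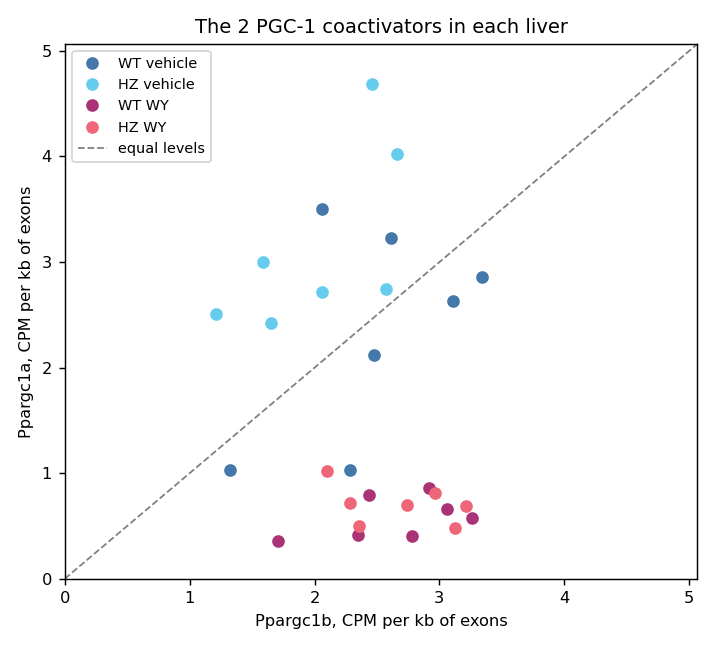
Ppargc1a against Ppargc1b in each liver, both as CPM per kb of annotated exons, with the line of equal levels. All 14 WY livers lie below the line, 7 of 7 HZ vehicle livers lie above it, and WT vehicle livers lie on both sides. The place of the line depends on the exon lengths used.

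The p160 coactivator genes also parted. Ncoa1 (SRC-1) ran from 27.4 to 32.7 CPM in WT vehicle and 25.9 to 32.4 in WT WY, and from 24.4 to 37.7 in HZ vehicle and 24.1 to 33.3 in HZ WY. Its log2 fold change was -0.10 in WT (95% interval -0.26 to 0.06) and -0.05 in HZ (-0.21 to 0.11). Ncoa2 (GRIP1, also called TIF2) ran from 77.0 to 91.2 CPM in WT vehicle with a median of 78.7, and from 47.5 to 57.9 CPM in WT WY with a median of 52.2. In HZ vehicle it ran from 80.4 to 98.1 CPM with a median of 88.3, and in HZ WY from 50.1 to 66.8 CPM with a median of 61.5. WY and vehicle animals did not overlap in either genotype. Ncoa2 fell to 62.8% of vehicle in WT (log2 fold change -0.67 ± 0.06, adjusted p = 7.57e-10) and to 68.4% in HZ (-0.55 ± 0.06, adjusted p = 1.61e-08).

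The size of these values changed when a trend on exon length was removed, and the part of exon length itself was not tested. The annotated exons of Ncoa2 add up to 15.6 kb, the longest of the 10 genes, and those of Ncor1 to 12.8 kb. With a trend of CPM on exon length removed in each library, Ncoa2 still passed at -0.39 in WT and -0.34 in HZ. Ncor1, the scaffold of a corepressor complex with histone deacetylase 3, had no call in the fit without that step. Ncor1 levels ran from 136 to 175 CPM in WT vehicle and 126 to 159 in WT WY, and from 130 to 169 in HZ vehicle and 133 to 161 in HZ WY, and the groups overlapped. Its log2 fold change was -0.11 in WT (95% interval -0.24 to 0.03) and -0.01 in HZ (-0.14 to 0.13). With the length trend removed these became 0.14 (adjusted p = 0.0346) and 0.16 (adjusted p = 0.0118), so the direction for Ncor1 depends on that step. Per kilobase the median ratio of Ncor1 to Ncoa2 under vehicle was 2.34 in WT and 2.00 in HZ, and under WY it was 3.42 in WT and 2.87 in HZ.

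HZ against WT asks which of these genes differ in Sirt6 heterozygous livers. Under vehicle 1 of the 10 genes passed, Ppara, which was lower in HZ, where 2.07% of all genes passed, 0.301% as higher and 1.77% as lower. Under WY 1 gene passed, Ncoa2, which was higher in HZ, where 3.16% of all genes passed, 1.42% as higher and 1.74% as lower. In neither treatment were the genotypes without overlap for any of the 10 genes, and 0.27 and 1.35% of all genes were without overlap. These comparisons use the same 28 libraries as the WY comparisons, so the values of both are not independent.

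**Figure D4:**
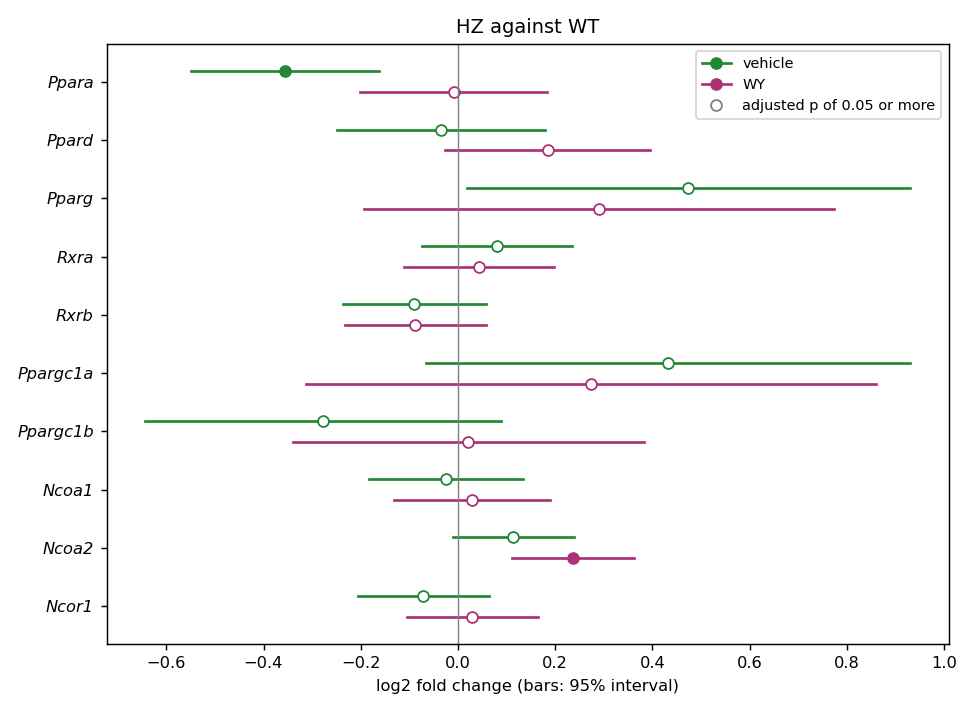
Log2 fold change of HZ against WT for each gene under vehicle and under WY (bars are 95% intervals, open points did not pass an adjusted p of 0.05, n = 7 per group). The filled points are Ppara under vehicle at -0.36 and Ncoa2 under WY at 0.24.

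Ppara was 561 ± 80.8 CPM in WT and 438 ± 55.0 in HZ under vehicle (SD, n = 7), and 485 ± 46.7 and 482 ± 61.5 under WY. In the vehicle livers 1 HZ animal (30, at 533 CPM) was above 3 of the 7 WT animals, and the other 6 HZ animals lay at or below 451 CPM. The highest WT values, 673, 627 and 595 CPM, were those of animals 78, 76 and 74, whose numbers lie in the range 71 to 78. HZ animal 71 of the same range was at 451 CPM. Ppara in HZ was 78.1% of WT under vehicle (95% interval 68.4 to 89.3%, log2 fold change -0.36 ± 0.09, adjusted p = 0.0442). Under WY it was 99.4% of WT (87.0 to 114%, adjusted p = 0.970). The vehicle call was lost in 5 of 11 alternatives, among them the fit of the vehicle groups alone (-0.35, adjusted p = 0.184), the fit without the 5 HZ libraries that lay apart (-0.37, adjusted p = 0.133) and the fit without animals 71 to 78 (-0.22, adjusted p = 0.412). It was also lost on leaving out 1 animal in 9 of 14 cases (WT 29, 74, 76 and 78 and HZ 34, 35, 36, 38 and 39), with log2 fold changes of -0.41 to -0.31. The exact permutation test gave p = 0.00932 without adjustment.

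Ncoa2 was 51.5 ± 3.59 CPM in WT and 60.7 ± 5.23 in HZ under WY, and 82.0 ± 6.43 and 88.7 ± 6.65 under vehicle. Of the HZ WY animals 6 lay above every WT WY animal, and HZ WY animal 2 at 50.1 CPM lay within the WT range. The HZ level was 118% of WT under WY (95% interval 108 to 129%, log2 fold change 0.24 ± 0.06, adjusted p = 0.0345) and 108% under vehicle (99.2 to 118%, adjusted p = 0.331). Removing the length trend cut the WY value to 0.12 (adjusted p = 0.170), and without the 5 HZ libraries it was 0.18 (adjusted p = 0.227). Leaving out 1 animal ended the call in 7 of 14 cases (WT 10, 11, 19 and 24 and HZ 5, 15 and 21).

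The other genes had no call between genotypes. Pparg was 139% of WT in HZ under vehicle (95% interval 101 to 190%, adjusted p = 0.257), and Ppargc1a was 135% (95.5 to 191%, adjusted p = 0.357). The intervals for Rxra, Rxrb, Ncoa1 and Ncor1 were narrower and ran from 84.8% at the lowest to 118% at the highest under both treatments. Ppargc1b was 82.5% of WT under vehicle (64.0 to 106%) and 101% under WY (79.0 to 130%).

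The interaction asks whether the WY effect differs between genotypes. None of the 10 genes passed in edgeR, 1 had an unadjusted p below 0.05, and DESeq2 and limma also called 0 of them. Of all genes 0% passed in edgeR, with 1182 below an unadjusted p of 0.05, and DESeq2 called 3 and limma 1. Ppara had the value farthest from 0 relative to its error, 0.35 on the log2 scale (95% interval 0.07 to 0.62, adjusted p = 0.435), made up of -0.21 in WT and 0.14 in HZ. For Rxrb the difference was 0.0024 (-0.20 to 0.21), for Ncoa2 0.12 (-0.05 to 0.30) and for Ppargc1a -0.16 (-0.93 to 0.61), so a difference of up to almost 1 log2 unit in the Ppargc1a response is within its interval.

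Variation between animals of a group was looked at with the group means removed, over 28 libraries, as a description of libraries that share normalisation and depth. Among the 45 pairs of the 10 genes Pearson's r ran from -0.59 to 0.59 with a median of 0.06. Ncor1 with Ncoa1 was the highest pair (0.59), followed by Ncor1 with Ncoa2 (0.52), and Pparg with Ncoa2 was the lowest (-0.59). Ppargc1a was most like Slc38a4, an amino acid transporter, Tat, the tyrosine aminotransferase, and Slc7a2, a cationic amino acid transporter, with r of 0.80, 0.80 and 0.79. Ppara was most like St3gal5 (0.79), Insr, the insulin receptor (0.77), and Lrp6, a Wnt co-receptor (0.76). Ncoa2 was most like Zhx3, Gxylt1 and Prrc2c (0.83, 0.81 and 0.80), and Rxrb was most like H2afx, Il17rc and Ppp1r12c (0.77, 0.77 and 0.75). Ppard was most like Fhod1, Nans and Msrb3 (0.79, 0.73 and 0.72), and Pparg had the loosest neighbours, Cnot10, Nudt9 and Cyp2a5 (0.64, 0.62 and 0.61).

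The wider set of 18 other coactivators moved in both directions under WY. In WT 4 rose, 10 fell and 4 did not pass, with a median log2 fold change of -0.28 against -0.02 for all genes. In HZ 6 rose, 9 fell and 3 did not pass, with a median of -0.17 against 0.01. Of all genes 27.4% rose and 26.7% fell in WT, and 29.3% rose and 26.4% fell in HZ. Lpin1, a phosphatidate phosphatase that also acts as a coactivator of PPARα with PGC-1α, fell from 435 ± 230 to 92.6 ± 56.7 CPM in WT (log2 fold change -2.23 ± 0.41, adjusted p = 5.86e-05) and from 646 ± 147 to 78.7 ± 39.6 in HZ (-3.04 ± 0.42, adjusted p = 1.32e-06). Kat2b and Ep300, both histone acetyltransferases, fell by 0.48 and 0.56 on the log2 scale in WT and by 0.53 and 0.39 in HZ. Prmt1, an arginine methyltransferase, rose by 0.61 in WT and 0.57 in HZ, and Smarca4, the ATPase of a chromatin remodelling complex, rose by 0.36 and 0.52. Between genotypes none of the 18 passed in edgeR under either treatment, with 0 below an unadjusted p of 0.05 under vehicle and 6 under WY. Results with the exon length trend removed were not read for these 18 genes or for the gene lists below. The part of exon length in their values was not tested.

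**Figure D5:**
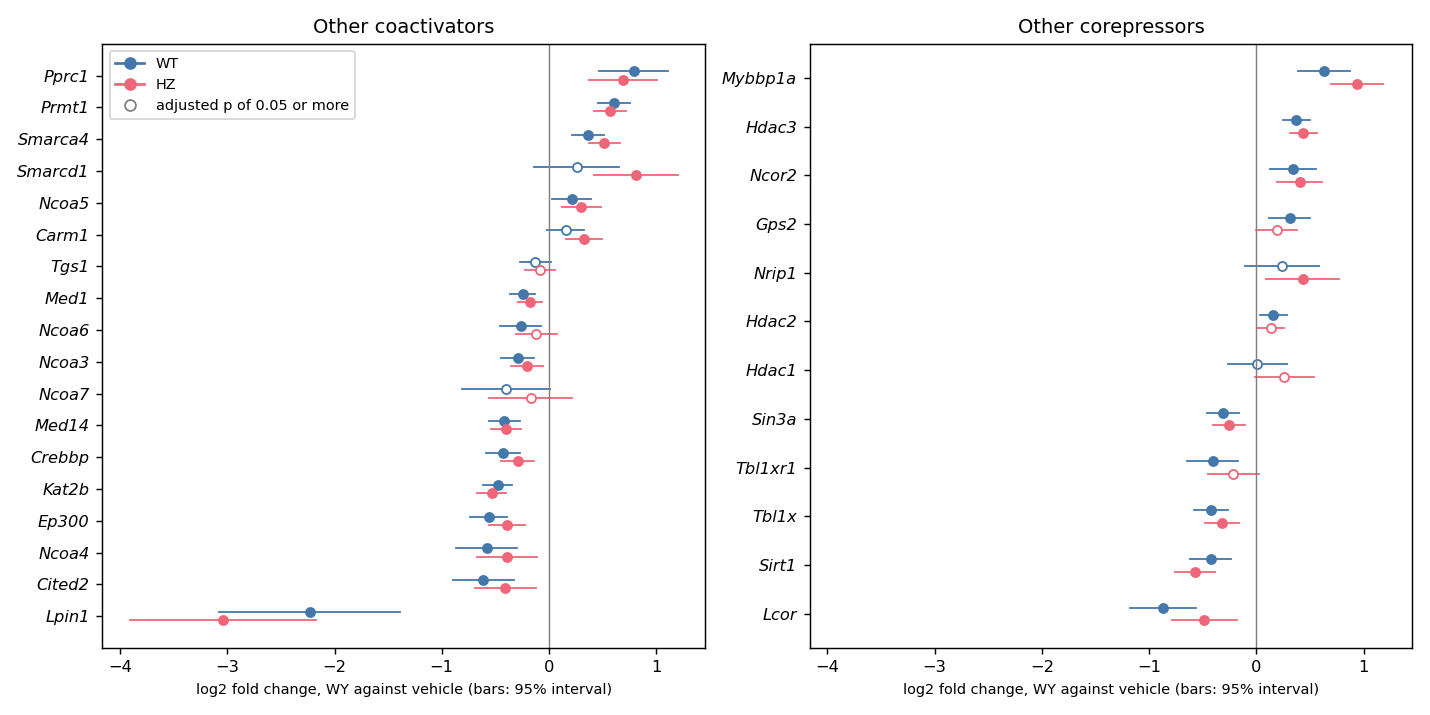
Log2 fold change of WY against vehicle for 18 other coactivators and 12 other corepressors in WT and HZ livers (bars are 95% intervals, open points did not pass an adjusted p of 0.05). Both sets hold genes on each side of 0, and Lpin1 lies farthest to the left at -2.23 in WT and -3.04 in HZ.

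Of 12 other corepressors, 5 rose, 5 fell and 2 did not pass in WT, and 4 rose, 4 fell and 4 did not pass in HZ, where 54.1 and 55.7% of all genes passed. Their log2 fold changes had a median of 0.08 in WT and 0.16 in HZ, against -0.02 and 0.01 for all genes. Hdac3, the deacetylase of the NCoR complexes, rose by 0.37 ± 0.06 on the log2 scale in WT (adjusted p = 1.01e-05) and by 0.44 ± 0.06 in HZ (adjusted p = 7.85e-07). Tbl1x, another subunit of those complexes, fell by 0.42 in WT and 0.32 in HZ. Lcor, a ligand-dependent corepressor, fell by 0.87 and 0.49. Mybbp1a, which binds PGC-1α and lowers its activity, rose by 0.63 and 0.94, and Sirt1, a deacetylase of PGC-1α, fell by 0.43 and 0.57. In the genotype comparisons 0 of 12 passed in edgeR, with 2 below an unadjusted p of 0.05 under vehicle and 4 under WY.

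Among 12 further nuclear receptors that pair with RXRs, or are RXRs themselves, 11 were tested. In WT 3 rose, 1 fell and 7 did not pass, and in HZ 4 rose, 1 fell and 6 did not pass, shares below the 54.1 and 55.7% of all genes. Nr1h3 (LXRα), an oxysterol receptor, rose by 0.28 ± 0.06 and 0.33 ± 0.06 on the log2 scale in WT and HZ, and Nr1h2 (LXRβ) rose by 0.23 and 0.26. Thrb, the main thyroid hormone receptor of liver, fell by 0.43 and 0.31. Rxrg, the gene of the third RXR, rose from 6.82 ± 2.21 to 10.6 ± 0.883 CPM in WT (log2 fold change 0.64 ± 0.17, adjusted p = 0.00194) and from 5.25 ± 1.65 to 9.56 ± 1.53 in HZ (0.86 ± 0.17, adjusted p = 8.21e-05).

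Genes on which these receptors act were read from 3 lists. Of 20 textbook PPARα targets, 18 rose and 2 did not pass in WT, and 19 rose and 1 did not pass in HZ, while Ppara itself showed no call. Among all genes 27.4% rose in WT and 29.3% in HZ. Acaa1b, a peroxisomal thiolase, rose by 1.54 ± 0.18 on the log2 scale in WT and 2.05 ± 0.18 in HZ, and Plin2, a lipid droplet coat protein, rose by 1.92 ± 0.28 and 3.06 ± 0.29. Between genotypes 8 of the 20 were lower in HZ under vehicle, where Ppara was lower too and 1.77% of all genes were lower. Of the 20, 16 were below an unadjusted p of 0.05 in edgeR under vehicle, where 2256 of all 12607 genes were. Under WY 0 of 20 passed in edgeR, with 0 below an unadjusted p of 0.05. In the interaction 0 of 20 passed in edgeR, with 11 below an unadjusted p of 0.05, where 1182 of all genes were. The median interaction was 0.57 on the log2 scale for the 20 genes and 0.02 for all genes. Pex11a, a peroxisome proliferation factor, was lower by 1.25 ± 0.25 on the log2 scale in HZ under vehicle (adjusted p = 0.0144). With only the groups compared, without animals 71 to 78 or without the 5 HZ libraries that lay apart, none of these 8 calls was made.

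Partners and targets of PGC-1 did not move as 1 group. Of 15 genes, 3 rose, 5 fell and 7 did not pass in WT, and 4 rose, 5 fell and 6 did not pass in HZ, so that 8 and 9 of the 15 passed, near the 54.1 and 55.7% of all genes. Their log2 fold changes had a median of -0.0038 in WT and -0.07 in HZ. Tfam, the mitochondrial transcription factor, rose by 0.49 ± 0.06 on the log2 scale in WT and 0.56 ± 0.06 in HZ. Esrra, the receptor ERRα, rose by 0.58 ± 0.09 and 0.61 ± 0.09. Gabpa, a nuclear respiratory factor subunit, fell by 0.47 and 0.36. The gluconeogenic gene Pck1 fell from 2343 ± 1009 to 1260 ± 455 CPM in WT (log2 fold change -0.89 ± 0.29, adjusted p = 0.00987) and from 2966 ± 285 to 869 ± 361 in HZ (-1.77 ± 0.29, adjusted p = 1.21e-05). Between genotypes 1 of the 15 passed, Tfam, which was lower in HZ under vehicle by 0.26 ± 0.06 (adjusted p = 0.0300), a call that was lost in the same 3 analyses.

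Of 7 listed genes known as PPARγ targets in fatty liver, 6 were tested. In WT 4 rose and 2 did not pass, and in HZ 5 rose and 1 did not pass, while Pparg itself fell. Of all genes 27.4% rose in WT and 29.3% in HZ. Cidec, a lipid droplet fusion protein, rose from 3.74 ± 0.897 to 43.7 ± 18.7 CPM in WT (log2 fold change 3.54 ± 0.28, adjusted p = 2.94e-10) and from 2.83 ± 1.30 to 33.1 ± 11.5 in HZ (3.54 ± 0.29, adjusted p = 2.92e-10). Fabp4, a fatty acid binding protein best known from fat and macrophages, rose by 2.65 ± 0.31 and 1.78 ± 0.31 on the log2 scale, and Mogat1, an acylglycerol acyltransferase, rose by 1.87 ± 0.29 and 2.78 ± 0.31. Several of these genes are also induced by PPARα. Adiponectin, the fat cell hormone encoded by Adipoq, had 4 counts or fewer in every library.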

How the data were processed

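Liver RNA of 28 mice was sequenced. Per the submitters' processing notes STAR 2.5.0a, HTSeq 0.6.1p1 and DESeq2 1.18.1 were used on mm10, while annotation and strand were not given in the sources used. The authors deposited raw counts of reads per gene symbol, in a vehicle table of 23423 rows and a WY table of 23425 rows. The 5 HTSeq summary rows of each table and 25 and 27 rows with date-like names were left out, which left 23393 symbols. Of the exons of the 10 genes, 0.648% (Ncor1) and 0.793% (Ncoa1) overlap exons on the opposite strand.

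Genes were kept by filterByExpr (12607), scaled with TMM and fitted in edgeR 4.0.16 under R 4.3.3. The quasi-likelihood fit was robust, took all 28 libraries (24 residual degrees of freedom) and gave 5 contrasts. P-values were adjusted by Benjamini-Hochberg over all genes of a contrast, with a threshold of 0.05. The SE was taken as the size of the log2 fold change divided by the square root of F. CPM per kb uses exon lengths of GENCODE M21 (GRCm38), which matched 21759 symbols. The script was tested on simulated data. The 10 genes and the gene lists were chosen with earlier results of these data known. Named genes are the 10, Sirt6, up to 3 genes of smallest p from each list with a call in a contrast, and the 3 genes of highest correlation (log2 CPM with a prior count of 2, mean of at least 5 CPM) with each called gene. Lpin1, Pck1, Alb, Lep and Adipoq lie outside that rule and were chosen after their values were seen. Alternatives were DESeq2 size factors, DESeq2 1.42.0, limma 3.58.1 with voom quality weights, no filter, only genes with a mean of 5 CPM or more, fits of the compared groups alone, a term for animals 71 to 78, a clock score as covariate (first principal component of clock genes), removal of a lowess trend (span 0.3) on exon length over the 94.36% of tested genes with a length, an exact permutation test over 3432 splits, and leaving out each animal. Clock genes were centred within each treatment, over both genotypes, before the clock score was taken. Leaving out the 5 HZ libraries or animals 71 to 78 was added after seeing the data.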

Additional observations from a re-analysis of the deposited data

How the results depend on the processing

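No paired analysis was possible because no animal number occurs in more than 1 group. The falls of Ppargc1a and Ncoa2 and the rise of Rxrb under WY passed in both genotypes in all 11 alternative fits and in all 14 fits with 1 animal left out. The WY call of Ppard in HZ passed in all of these too. A mean of at least 5 CPM left Pparg out of the genes tested, and where no construction of the alternative shows why a value moved, the cause was not tested.

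The number of the 10 genes called in HZ against WT under vehicle was 0 with no filter on low counts, with only the groups compared, with a term for animals 71 to 78, without these animals and without the 5 HZ libraries. Under WY it was 0 with no filter, with the length trend removed and without the 5 HZ libraries. Leaving out 1 animal gave 0 to 1 in both. With the length trend removed 7 of the 10 genes were called for WY in WT, Ppara, Ppard and Ncor1 being the additions. Of all 12607 genes tested 6540 were called in that analysis, against 6815 in the fit reported.

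All genes called in HZ against WT under vehicle numbered 261 in the fit reported, 521 in DESeq2, 701 in limma, 146 with no filter, 69 with a term for animals 71 to 78, and 0 with only the groups compared, without those animals or without the 5 HZ libraries. In the last 3 the vehicle calls of Sirt6, Tfam, Pex11a and the other PPARα targets were thus lost too. Under WY they numbered 398, against 683 with DESeq2 size factors, 1123 in DESeq2, 934 in limma, 153 with no filter, 1052 with the clock score and 48 without the 5 HZ libraries. Leaving out 1 animal gave 43 to 650 under vehicle and 74 to 977 under WY. For the interaction DESeq2 called 3 genes and limma 1, and leaving out 1 animal gave 0 to 1.

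Directions changed for values that had not passed. In HZ against WT under vehicle, the log2 fold change of Ncoa1 was 0.010 with the term for animals 71 to 78, 0.0058 without them and 0.011 without the 5 HZ libraries, and that of Ppard was 0.015 without animals 71 to 78. In HZ against WT under WY, Ppara was 0.0066 at a mean of at least 5 CPM and 0.068 with the clock score. Ncor1 was -0.014 with the clock score, -0.076 with the length trend removed and -0.014 without the 5 HZ libraries. Ncoa1 was -0.044 with the length trend removed and -0.062 without the 5 HZ libraries, and Ppargc1b was -0.013 in limma and -0.12 without the 5 HZ libraries. For WY in WT with the length trend removed, Ncor1 was 0.14 and Ncoa1 0.044. For WY in HZ, Ncoa1 was 0.045 with the length trend removed, and Ncor1 was 0.022 in limma, 0.0013 with no filter, 0.015 with only the groups compared, 0.018 with the term for animals 71 to 78, 0.16 with the length trend removed and 0.010 without those animals.

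For the interaction, Rxrb was -0.021 with DESeq2 size factors, -0.021 in DESeq2, -0.026 in limma, -0.00095 at a mean of at least 5 CPM, -0.013 with the length trend removed and -0.046 without the 5 HZ libraries. Without those 5 libraries Pparg was 0.11, Ppargc1a 0.035, Ncoa1 -0.073 and Sirt6 0.0032, and Ppargc1a was 0.36 with the clock score.

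Leaving out 1 animal at a time moved these log2 fold changes across 0: Ncoa1 from -0.090 to 0.018 and Ppard from -0.089 to 0.033 between genotypes under vehicle, Ncoa1 from -0.0088 to 0.067, Ppara from -0.052 to 0.036 and Ppargc1b from -0.063 to 0.079 under WY. Across 0 as well went Ppargc1b from -0.0024 to 0.19 for WY in WT, Ncor1 from -0.035 to 0.031 and Ncoa1 from -0.092 to 0.016 for WY in HZ, and in the interaction Rxra from -0.075 to 0.0030 and Rxrb from -0.033 to 0.057.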
